A study of Macaca mulatta with 8 samples.

Results

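The cell cycle and proliferation genes are a list of 42 genes chosen by symbol, covering the G1 cyclins and kinases, the regulators of entry into S phase, replication licensing, nucleotide synthesis, the cyclins from S phase to mitosis, the mitotic kinases and the spindle. Of these, 40 were found by symbol among the 35432 genes counted, and CCND2 and UBE2C had no row under their symbols and were skipped. All 40 passed the filter on low counts, as did 12131 genes in all, and the lowest count of any of them in any library was 29 (CCNB2).

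RNA was sequenced from primary microglia of 4 adult rhesus macaques (Macaca mulatta), each giving 1 culture with ultrapure LPS (uLPS, a TLR4 agonist) and 1 that also received MRS2578 beforehand, an antagonist of the nucleotide receptor P2RY6, so that there were 4 libraries per condition. The donors were R07110 (male, 13 years), R12016 (male, 9 years), R02046 (female, 19 years) and R14143 (female, 6 years). Cells from subcortical white matter that had attached to plastic were kept for 8 days without passaging in medium with serum and M-CSF, a growth factor of macrophages, given as 10 ng/mL in the labels and as 20 ng/mL in the methods of the study. On day 7, MRS2578 was added at 5 µM 1 h before uLPS at 10 µg/mL, and RNA was taken 16 h after uLPS. Every library thus carried both M-CSF and uLPS, and cultures without uLPS were not analysed here, so the levels have no resting culture beside them.

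For donor R02046, 2 sources disagree on which library is which. In the study's own listing of per-donor CPM values, 6 of 8 columns were proportional to the library with the same label, and the 2 columns of R02046 were proportional to the library of the other condition. For MRS2578, the main counts over the list and the fold changes of its members are therefore given under the deposited labels and after exchanging the pair from R02046, and, for the counts and the members shown in every library, also without that donor. Of all genes tested, edgeR called 0 for MRS2578 at an adjusted p of 0.05 with the labels and 75 with the exchange. The study itself reported genes that differed with MRS2578 at a false discovery rate under 0.05. Which source is right was not tested.

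Cells enter the cycle when D-type cyclins with CDK4 or CDK6 inactivate the retinoblastoma protein and release E2F factors, which drive genes for replication. A later wave of genes for mitosis is under the control of the MuvB complex with MYBL2 and FOXM1. Microglia are long-lived macrophages that renew slowly in the healthy brain and depend on signals through CSF1R, the receptor of M-CSF.

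Total counts ran from 9231109 to 32790348 per library, and 3 counts, the most that a count of 0 allows, corresponded to 0.0914 to 0.320 CPM (counts per gene relative to the TMM-scaled size of the library), which covers counting error only. Of the markers of microglia and macrophages, 14 of 15 were found and 11 passed the filter, with a summed level of 4528 to 5417 CPM with uLPS and 4118 to 5309 CPM with MRS2578. CSF1R was at 1007 to 1471 CPM and CD68 at 716 to 1289 CPM, and P2RY12 (5.70 to 13.3 CPM) and GPR34 (25.05 to 88.7 CPM), both enriched in microglia, were present in every library. By contrast, TMEM119 and P2RY13, which mark microglia in tissue, were at most at 0.316 CPM in every library, and CX3CR1 reached 2.21 CPM only in R12016 with MRS2578. Of 11 lymphocyte markers found, 9 were under 1 CPM in every library, with the T cell genes CD3D and CD3E at most at 0.112 CPM, while CD4 was at 303 to 614 CPM and CD8A at 5.69 to 50.7 CPM. Markers of fibroblasts and mural cells (9 of 9 found) summed to 102 to 1260 CPM with uLPS and 223 to 563 CPM with MRS2578. Within R14143 this sum was 1260 CPM with uLPS and 456 CPM with MRS2578, while in each other donor it was higher with MRS2578 by the labels. Astrocyte markers in R14143 summed to 205 and 121 CPM. The libraries of R14143 thus differed in these markers too, and the part of this in its differences with MRS2578 was not tested. In such bulk samples, fewer cycling cells and less RNA of these genes per cell cannot be told apart.

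The cultures held transcripts of every phase of the cycle. All 40 genes were above 1 CPM in all 8 libraries, and 34 were above 5 CPM in all of them. Divided by the length of the merged exons of each gene (RefSeq annotation of Mmul_10, 40 of 40 matched), the mean level over 8 libraries ran from 1.61 CPM per kb for CDC20, an activator of the anaphase-promoting complex, to 104 CPM per kb for CCND3, a D-type cyclin. On this scale the G1 genes CCND3 and CDK4 (54.3 CPM per kb) and the replication clamp PCNA (56.4 CPM per kb) stood above all other members. The licensing helicase subunits MCM2 to MCM7 lay at 16.3 to 28.7 CPM per kb, a range that also held the nucleotide synthesis genes TYMS (19.6), RRM1 (17.6) and RRM2 (17.6). MKI67, the gene of the proliferation marker Ki-67, was at 7.99 CPM per kb, TOP2A, which untangles DNA, at 11.3 CPM per kb, and the mitotic kinase AURKB at 2.62 CPM per kb. For scale, CSF1R was at 306 CPM per kb and CDKN1A, the inhibitor p21 of cyclin-dependent kinases, at 95.1 CPM per kb. Neighbours in this order mostly overlapped in their ranges over libraries. The order also depends on the length used, since merged exons take in those of every annotated transcript of a gene. CDC20 has 5707 bases of merged exons, and by counts alone its mean was 9.18 CPM, above that of CCNB2 at 4.90 CPM.

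**Figure D1:**
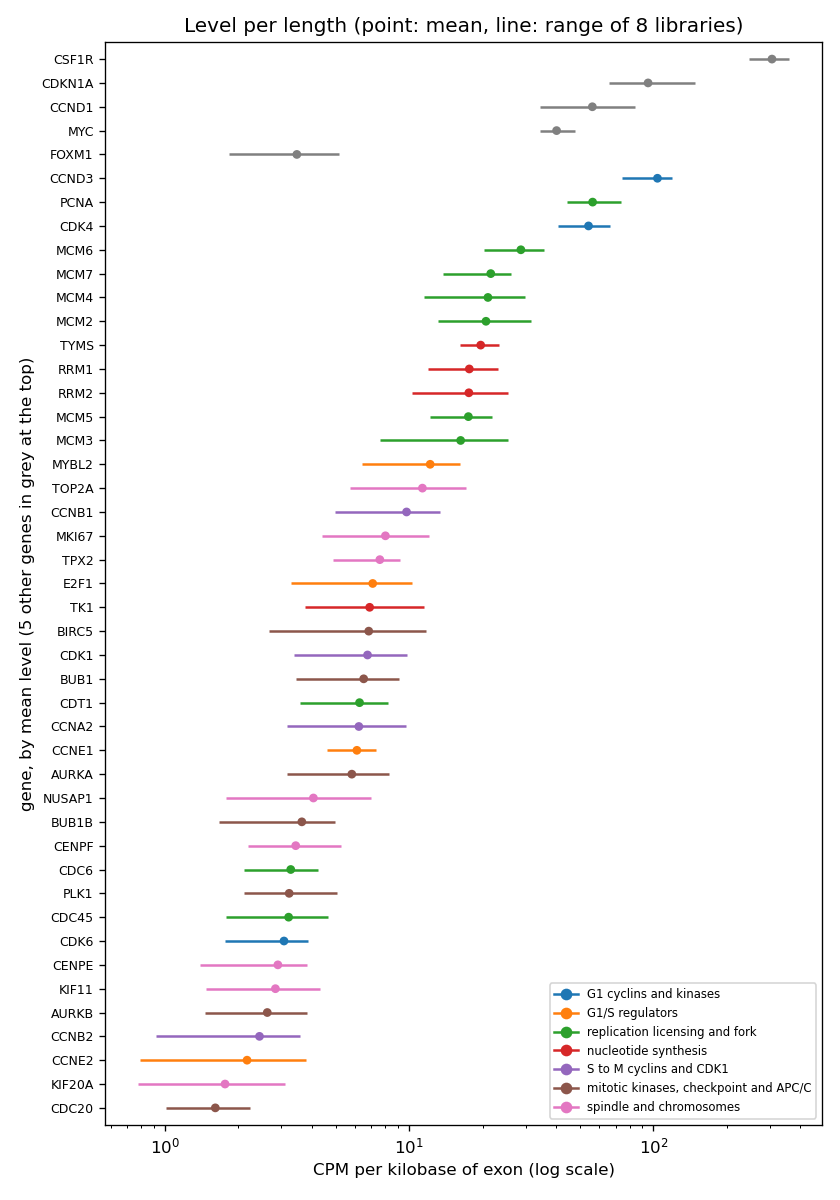
Level of each gene per length, in CPM per kilobase of exon on a log axis, with points for the mean and lines for the range over 8 libraries, coloured by role; 5 genes outside the list are in grey. CCND3, PCNA and CDK4 stand above the other members, and CDC20 (1.61 CPM per kb, over 5707 bases of merged exons) lies lowest on this scale.

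The first comparison asks whether these genes differed with MRS2578 in microglia exposed to uLPS. The study describes the compound as selective for P2RY6 but not fully specific, with off-target effects on microglia still to be tested. With the deposited labels, 36 of 40 genes had a fitted fold change below 0, against 52.1% of all genes tested, and the median log2 fold change was -0.23 over the 40 and -0.01 over all genes. Members share their libraries and are not independent of each other, so counts over the list are descriptions. None of the 40 passed an adjusted p of 0.05 (0% of all genes did) in the quasi-likelihood test of edgeR, blocked by donor. At an unadjusted p under 0.05 there were 8 of 40, against 5.14% of all genes. Of these, 7 were lower with MRS2578, against 2.44% of all genes, namely AURKB, BIRC5, MCM7, CDK1, MCM5, MCM3 and CDT1, and CDK6 was higher. DESeq2 and edgeR's likelihood ratio test also called 0 of the 40.

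The label of R02046 moved these counts. With the R02046 libraries exchanged, 30 of 40 genes were below 0, against 49.8% of all genes, and the median log2 fold change was -0.11. No member passed an adjusted p of 0.05, while 0.618% of all genes did, and at an unadjusted p under 0.05 there were 3 members (CCND3, BUB1 and KIF11), against 16.4% of all genes. All 3 were lower, against 9.59% of all genes. Without R02046, 34 of 40 were below 0, against 50.5% of all genes, with a median of -0.24. None was called (0% of all genes), and 6 had an unadjusted p under 0.05, against 13.6%. These 6 (MCM7, CCNA2, BUB1, AURKB, BIRC5 and CENPE) were all lower, against 7.86% of all genes. Apart from the share of genes below 0, the members thus had a larger share than all genes at an unadjusted p with the labels, a smaller one with the exchange and a similar one without R02046.

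**Figure D2:**
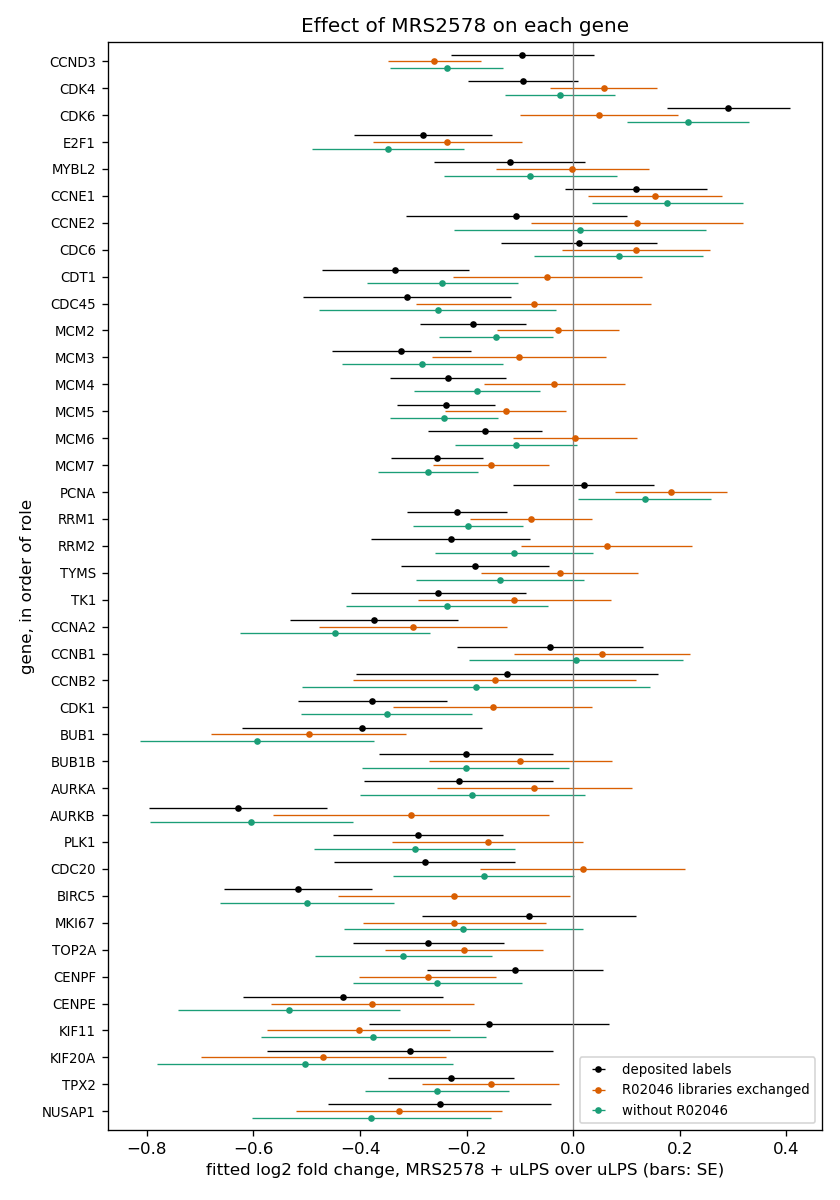
Fitted log2 fold change of each gene, MRS2578 with uLPS over uLPS alone, with bars for the standard error, under the labels as deposited, after the exchange for R02046 and without that donor. With the labels 36 of 40 points lie below 0, led by AURKB at -0.63, and with the exchange 30 of 40.

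Within single donors, the median difference in log2 CPM over the 40 genes was -0.41 (R07110), -0.11 (R12016), -0.24 (R02046, labels) and -0.11 (R14143), where the median of all genes lay between -0.02 and 0.00. In R07110, 35 of 40 genes were lower with MRS2578 (49.7% of all genes), in a range from -0.92 for BUB1 to 0.23 for CDC6. In R12016, 23 of 40 were lower (50.2% of all genes), from -0.95 for CENPE to 0.95 for CCNB2. In R02046, 32 of 40 were lower with the labels (50% of all genes), and the exchange turns the sign of each. In R14143, 26 of 40 were lower (53.2% of all genes). The donors were thus unequal, with the largest shift in R07110, where all 19 members from the S-to-M cyclins onwards were lower.

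How many genes differed in one direction in every donor depended on the label of R02046. With the labels, 10 of 40 genes were lower in all 4 donors, against 6.49% of all genes: E2F1, CDT1, MCM3, MCM5, MCM7, RRM1, CCNA2, CDK1, AURKB and BIRC5. One, CDK6, was higher in all 4, against 6.43% of all genes. With the R02046 libraries exchanged, 2 of 40 (CCND3 and KIF11) were lower in all 4, against 13.2% of all genes. In the 3 donors with undisputed labels, 12 of 40 were lower in each, against 19.8% of all genes. With the labels, the 4 libraries with MRS2578 lay wholly apart from the 4 with uLPS for none of the 40, against 1.08% of all genes.

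**Figure D3:**
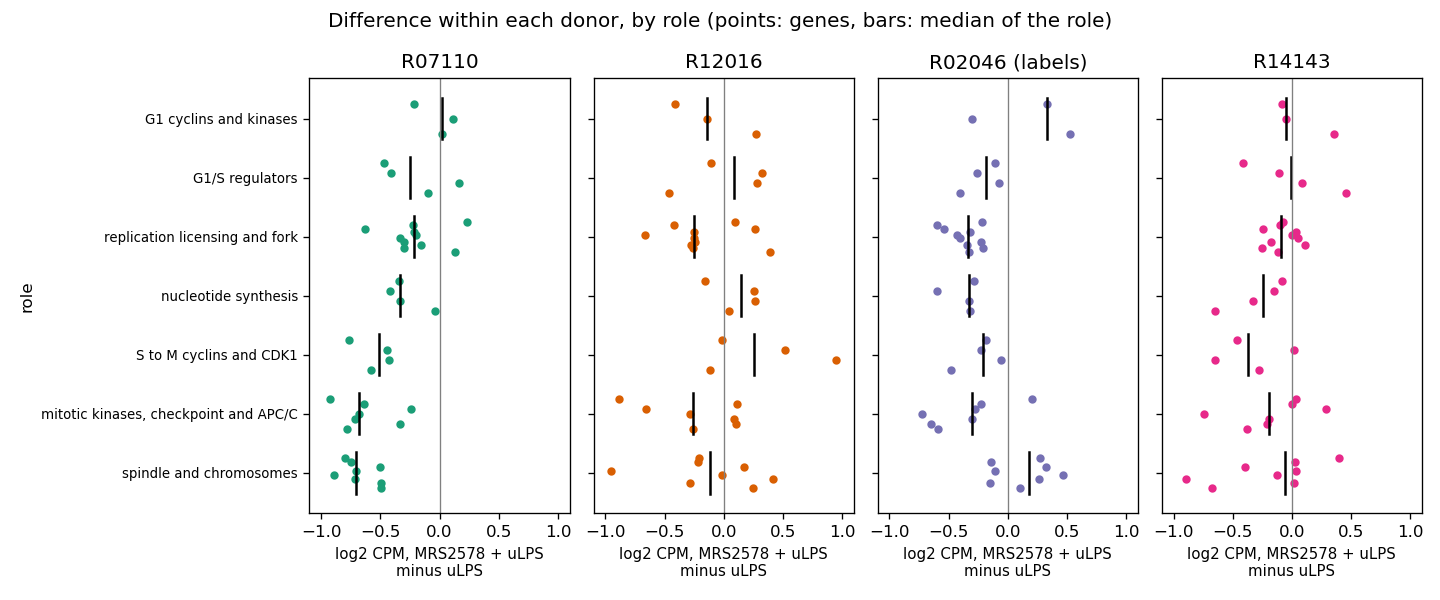
Difference in log2 CPM between MRS2578 with uLPS and uLPS alone in each donor, with 1 point per gene, grouped by role, and a bar at the median of each role; R02046 is shown with the deposited labels. In R07110 the spindle genes have a median of -0.71, and in R02046 one of 0.18.

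Among the G1 genes, which sense growth signals, CCND3 had the highest counts. CCND3 was at 299.8, 249, 230.2 and 296 CPM with uLPS in R07110, R12016, R02046 and R14143, and at 258, 187, 289.8 and 279 CPM with MRS2578 in the same order. Values of other genes follow this order of donors, with R02046 as labelled. The values overlapped, and R02046 went the opposite way to the other donors under its labels. Its log2 fold change was -0.10 (SE 0.13) with the labels and -0.26 (SE 0.09, unadjusted p 0.0181, adjusted p 0.202 by edgeR) with the exchange, and -0.24 (SE 0.11) without R02046. CDK6, a catalytic partner of the D-type cyclins with the lowest counts of the group, was at 43.6, 41.3, 22.9 and 37.3 CPM with uLPS and at 44.3, 50.0, 33.1 and 47.7 CPM with MRS2578. It was higher with MRS2578 in each donor by the labels, by 0.02 to 0.52 on the log2 scale, and lowest of all in both libraries of R02046. The fitted change was 0.29 (SE 0.12, unadjusted p 0.0400) with the labels, 0.05 (SE 0.15) with the exchange and 0.22 (SE 0.11) without R02046. CDK4, the other kinase of the group, had a log2 fold change of -0.09 (SE 0.10) with the labels and 0.06 (SE 0.10) with the exchange.

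Among the regulators of entry into S phase, MYBL2, a transcription factor of proliferating cells, was at 41.8, 16.5, 35.3 and 40.0 CPM with uLPS and at 31.5, 20.7, 29.5 and 37.1 CPM with MRS2578. CCNE2, an E-type cyclin, was at 7.07, 3.45, 11.7 and 5.79 CPM with uLPS and at 6.59, 2.47, 8.85 and 8.00 CPM with MRS2578. Both overlapped widely between conditions and were lowest in R12016. Their log2 fold changes were -0.12 (SE 0.14) and -0.11 (SE 0.21) with the labels, 0.00 (SE 0.14) and 0.12 (SE 0.20) with the exchange, and -0.08 (SE 0.16) and 0.01 (SE 0.24) without R02046. E2F1, the factor that activates replication genes, had a log2 fold change of -0.28 (SE 0.13) with the labels and -0.24 (SE 0.14) with the exchange, and CCNE1, the other E-type cyclin, of 0.12 (SE 0.13) and 0.15 (SE 0.13).

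Of the 10 genes of replication licensing and the fork, 4 had an unadjusted p under 0.05 with the labels (5.14% of all genes), 0 with the exchange (16.4%) and 1 without R02046 (13.6%). MCM7, a subunit of the replicative helicase, was at 84.1, 53.9, 85.6 and 85.1 CPM with uLPS and at 68.1, 45.1, 74.1 and 71.3 CPM with MRS2578. It was lower with MRS2578 in each donor by a near equal amount, 0.21 to 0.30 on the log2 scale, with both libraries of R12016 below all others. The fitted change was -0.26 (SE 0.09, unadjusted p 0.0210) with the labels, -0.15 (SE 0.11, p 0.196) with the exchange and -0.27 (SE 0.09, p 0.0272) without R02046.

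MCM5, another subunit, was at 53.4, 37.7, 56.9 and 49.0 CPM with uLPS and at 43.3, 31.8, 48.6 and 43.4 CPM with MRS2578. MCM3 was at 60.6, 37.0, 78.2 and 44.8 CPM with uLPS and at 52.9, 23.3, 57.9 and 44.7 CPM with MRS2578. In R14143 the values of MCM3 were nearly level, and on the log2 scale they lay furthest apart in R12016, at -0.67, followed by R02046 at -0.43. The log2 fold changes were -0.24 (SE 0.09) for MCM5 and -0.32 (SE 0.13) for MCM3 with the labels, -0.13 (SE 0.11) and -0.10 (SE 0.16) with the exchange, and -0.24 (SE 0.10) and -0.28 (SE 0.15) without R02046.

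CDT1, which loads the helicase at origins, was at 19.2, 11.2, 18.5 and 16.1 CPM with uLPS and at 16.4, 8.35, 12.1 and 15.0 CPM with MRS2578. Its largest difference was in R02046 (-0.60 on the log2 scale), and its fitted change was -0.33 (SE 0.14) with the labels, -0.05 (SE 0.18) with the exchange and -0.25 (SE 0.14) without R02046. PCNA, with the highest mean of the group, was at 79.9, 65.7, 109 and 79.7 CPM with uLPS and at 87.5, 86.3, 86.6 and 73.6 CPM with MRS2578. The PCNA means were 83.6 ± 18.1 and 83.5 ± 6.59 CPM (SD, n = 4), a log2 fold change of 0.02 (SE 0.13), which was 0.18 (SE 0.11) with the exchange and 0.13 (SE 0.12) without R02046. CDC45, a part of the active helicase with the lowest counts, was at 9.75, 4.15, 10.8 and 8.89 CPM with uLPS and at 6.27, 5.00, 7.39 and 7.49 CPM with MRS2578, and by the labels was above its uLPS value only in R12016. The change of CDC45 was -0.31 (SE 0.20) with the labels, -0.07 (SE 0.22) with the exchange and -0.25 (SE 0.22) without R02046. The remaining members of the group, CDC6, MCM2, MCM4 and MCM6, had log2 fold changes of -0.24 to 0.01 with the labels and -0.04 to 0.12 with the exchange.

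The genes of nucleotide synthesis supply DNA precursors. RRM1, the large subunit of ribonucleotide reductase, was at 77.1, 50.0, 86.9 and 71.8 CPM with uLPS and at 60.9, 44.8, 71.5 and 67.6 CPM with MRS2578. TK1, thymidine kinase, was at 12.7, 6.51, 13.7 and 20.02 CPM with uLPS and at 12.4, 6.70, 10.9 and 12.7 CPM with MRS2578. RRM1 was lower with MRS2578 in each donor by the labels, while TK1 differed mainly in R14143, and the conditions overlapped for both. Their log2 fold changes were -0.22 (SE 0.09) and -0.25 (SE 0.16) with the labels, -0.08 (SE 0.11) and -0.11 (SE 0.18) with the exchange, and -0.20 (SE 0.10) and -0.24 (SE 0.19) without R02046. Those of RRM2 and TYMS were -0.23 (SE 0.15) and -0.18 (SE 0.14) with the labels and 0.06 (SE 0.16) and -0.03 (SE 0.15) with the exchange.

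CDK1, the kinase that drives entry into mitosis, was at 17.3, 7.08, 18.9 and 16.3 CPM with uLPS and at 11.5, 6.51, 13.5 and 13.4 CPM with MRS2578. It was lower with MRS2578 in each donor by the labels, least in R12016, where both values lay below all others. The fitted change was -0.38 (SE 0.14, unadjusted p 0.0315) with the labels, -0.15 (SE 0.19) with the exchange and -0.35 (SE 0.16) without R02046. Its partner CCNA2, a cyclin of S and G2 phase, was at 26.0, 8.55, 19.6 and 22.2 CPM with uLPS and at 15.3, 8.48, 17.3 and 16.0 CPM with MRS2578. The change of CCNA2 was -0.37 (SE 0.16, unadjusted p 0.0507) with the labels, -0.30 (SE 0.18) with the exchange and -0.45 (SE 0.18, p 0.0470) without R02046.

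The B-type cyclins of mitosis did not follow CDK1 in R12016. CCNB1 was at 27.2, 10.1, 23.5 and 21.8 CPM with uLPS and at 20.02, 14.6, 20.04 and 22.03 CPM with MRS2578. CCNB2, the member with the lowest counts, was at 7.01, 1.85, 5.02 and 7.17 CPM with uLPS and at 5.18, 3.67, 4.83 and 4.53 CPM with MRS2578. In R12016 both were higher with MRS2578, by 0.52 and 0.95 on the log2 scale, and the 1.85 CPM of CCNB2 rests on 29 counts. The fitted changes were -0.04 (SE 0.17) and -0.12 (SE 0.28) with the labels, 0.05 (SE 0.17) and -0.15 (SE 0.27) with the exchange, and 0.01 (SE 0.20) and -0.18 (SE 0.33) without R02046.

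AURKB and BIRC5, which encode the kinase and the survivin subunit of the chromosomal passenger complex, had the lowest p-values of the list with the deposited labels and without R02046, but not with the exchange, where CCND3, BUB1 and KIF11 did. AURKB (chr16:8000367-8014052, minus strand, Mmul_10) was at 9.44, 4.40, 9.39 and 8.59 CPM with uLPS and at 5.86, 3.61, 5.63 and 5.09 CPM with MRS2578. It was lower with MRS2578 in each donor by the labels, and its values with MRS2578 lay below those with uLPS apart from the uLPS library of R12016. The means were 7.96 ± 2.40 and 5.05 ± 1.01 CPM (SD, n = 4), and the log2 fold change was -0.63 (SE 0.17, unadjusted p 0.00730). The edgeR quasi-likelihood fit gave it an adjusted p of 0.878, and the change was -0.30 (SE 0.26, unadjusted p 0.274) with the exchange and -0.60 (SE 0.19, p 0.0195) without R02046.

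BIRC5 (chr16:74584049-74597149, plus strand) was at 22.8, 7.66, 28.1 and 19.6 CPM with uLPS and at 13.1, 6.39, 18.6 and 15.0 CPM with MRS2578. Here too each donor was lower by the labels, with R12016 far below the others in both conditions. The log2 fold change was -0.52 (SE 0.14, unadjusted p 0.00758) with the labels, -0.22 (SE 0.22) with the exchange and -0.50 (SE 0.16, p 0.0228) without R02046. BUB1, a kinase of the spindle checkpoint, was at 32.4, 22.8, 24.97 and 23.2 CPM with uLPS and at 17.0, 12.3, 28.7 and 23.8 CPM with MRS2578. BUB1 was much lower with MRS2578 in R07110 and R12016, higher in R02046 by its labels (0.20 on the log2 scale) and near level in R14143 (0.04). Its fitted change was -0.40 (SE 0.22) with the labels, -0.50 (SE 0.18, unadjusted p 0.0265) with the exchange and -0.59 (SE 0.22, p 0.0360) without R02046. BUB1B, AURKA, PLK1 and CDC20 had log2 fold changes of -0.29 to -0.20 with the labels and -0.16 to 0.02 with the exchange.

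The spindle and chromosome genes all had a fitted change below 0 under both labellings of R02046. MKI67 was at 153, 64.5, 95.4 and 102.7 CPM with uLPS and at 87.7, 55.7, 116 and 135 CPM with MRS2578. The donors split, since R07110 and R12016 were lower with MRS2578 and R02046, by its labels, and R14143 were higher. The means were 104 ± 36.5 and 98.6 ± 34.7 CPM (SD, n = 4), and the log2 fold change was -0.08 (SE 0.20) with the labels, -0.22 (SE 0.17) with the exchange and -0.21 (SE 0.22) without R02046. TOP2A was at 99.7, 38.8, 76.4 and 76.0 CPM with uLPS and at 59.2, 33.3, 69.4 and 77.4 CPM with MRS2578, a log2 fold change of -0.27 (SE 0.14) with the labels, -0.21 (SE 0.15) with the exchange and -0.32 (SE 0.17) without R02046. Most of the difference in TOP2A lay in R07110.

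KIF11, a motor that separates the spindle poles, was at 21.96, 7.60, 13.98 and 17.4 CPM with uLPS and at 11.8, 7.53, 19.4 and 15.9 CPM with MRS2578. CENPE, a kinetochore motor, was at 30.2, 23.4, 26.5 and 32.1 CPM with uLPS and at 18.4, 12.02, 24.6 and 32.8 CPM with MRS2578. KIF20A, a motor of cytokinesis with the lowest counts of the group, was at 10.9, 3.00, 5.23 and 12.04 CPM with uLPS and at 6.59, 4.05, 6.29 and 6.43 CPM with MRS2578. The donors that carried the difference varied: R07110 for KIF11, R07110 and R12016 for CENPE, R07110 and R14143 for KIF20A. The libraries of R14143 also differed in markers of fibroblasts and mural cells, as given above. The fitted change of KIF11 was -0.16 (SE 0.22) with the labels, -0.40 (SE 0.17, unadjusted p 0.0471) with the exchange and -0.38 (SE 0.21) without R02046. That of CENPE was -0.43 (SE 0.19) with the labels, -0.38 (SE 0.19) with the exchange and -0.53 (SE 0.21, unadjusted p 0.0432) without R02046. That of KIF20A was -0.31 (SE 0.27), -0.47 (SE 0.23) and -0.50 (SE 0.28) in the same order.

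The second comparison is between donors, and here 1 animal, singled out after its values were seen, stood apart. In R12016, 36 of 40 genes were the lowest of the 4 donors in both conditions, against 15.5% of all genes, the exceptions being CCND3, CDK6, PCNA and TYMS. The genes were measured in the same libraries of 1 animal and are not independent, so this count describes 1 animal. For 34 of 40, both libraries of R12016 lay below the other 6, against 11.3% of all genes. No gene was lowest in both conditions in R07110 (5.79% of all genes) or R14143 (9.92%), and 1, CDK6, was in R02046 (14.9%). The mean of R12016 over that of the other donors had a median of 0.579 over the 40 genes and was lowest for BIRC5 at 0.360. It was above 1 for CDK6 (1.20) and TYMS (1.104), thymidylate synthase.

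The highest donor was less uniform. In both conditions R02046 was highest for 11 of 40 genes (14.6% of all genes), among them MCM2, MCM3, MCM5 and MCM7, R07110 for 4 (6.73%) and R14143 for 3 (9.37%), TK1, CENPF and CENPE. R12016 was highest for none of the 40 (13.5% of all genes). The F-test of the donor coefficients in edgeR's quasi-likelihood fit called 9 of 40 genes at an adjusted p of 0.05, against 7.35% of all genes: E2F1, MCM2, MCM3, MCM4, MCM7, CDK1, BUB1B, BIRC5 and TOP2A. With the R02046 libraries exchanged, it called 16 of 40, against 18.9% of all genes. Without R12016 it called 0 of 40, against 2.73% of all genes, and without R07110 it called 4, against 3.48%. R12016 was singled out from these same values, and leaving out a donor also leaves fewer libraries. The fall to 0 is therefore no separate test of that donor.

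Summed over a role, the level of R12016 was below that of the other donors in all 7 roles with MRS2578 and in 6 of 7 with uLPS. The 37 genes outside the G1 group summed to 831 and 770.2 CPM in R12016 and to between 1105 and 1482 CPM in the other 6 libraries. The S-to-M cyclins and CDK1 were at 27.6 and 33.3 CPM in R12016 against 52.0 to 77.5 CPM elsewhere, the widest ratio between donor means (2.13). The G1 group differed least, with 352 and 293 CPM in R12016 against 344 to 418 CPM, a ratio of 1.27.

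**Figure D4:**
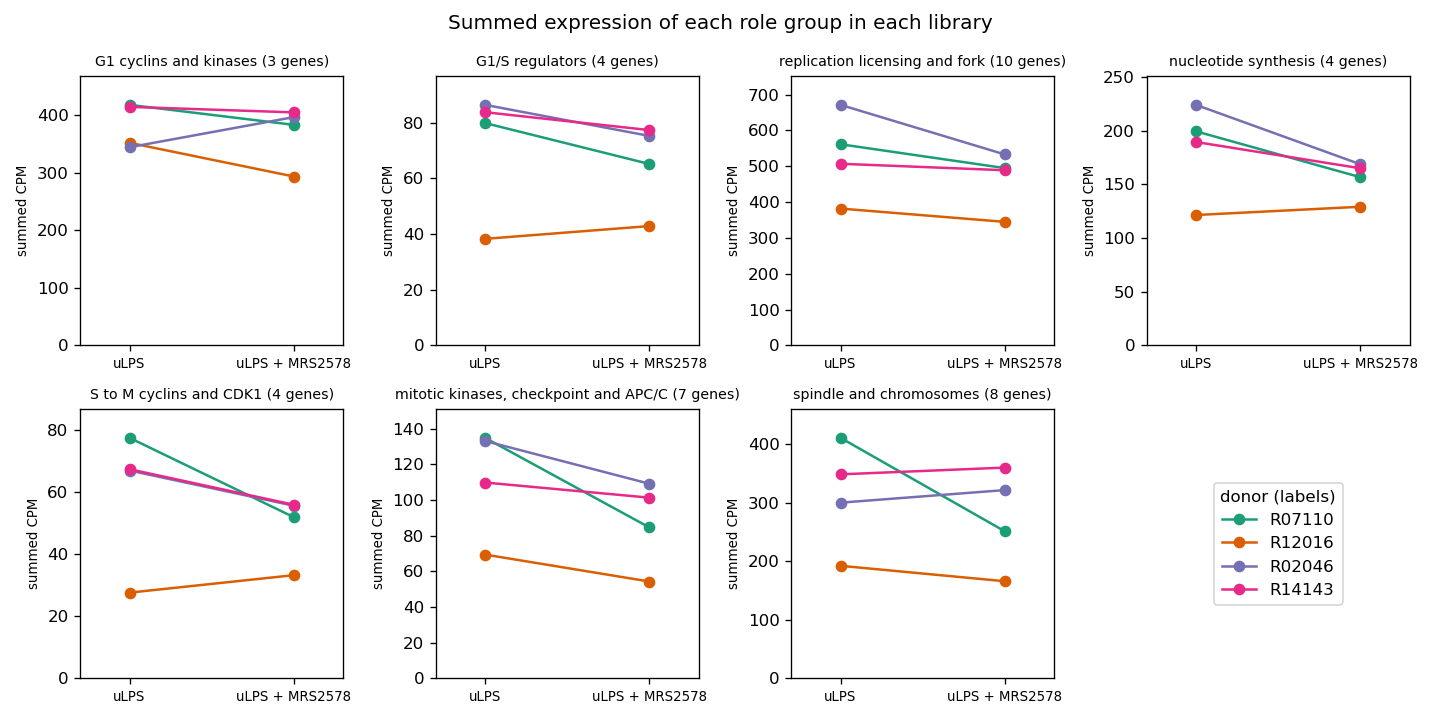
Summed CPM of each role in each library, from 0 on the vertical axis, with a line joining the 2 conditions of a donor as labelled. The line of R12016 lies lowest in every panel but that of the G1 cyclins and kinases, where R02046 is lower with uLPS.

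Values of other genes and lists are given beside this difference. CDKN1A was at 611 and 705 CPM in R12016 with uLPS and with MRS2578, against 314 to 485 CPM in the other 6 libraries, with an adjusted p of 0.0473 for donor by the edgeR F-test. MDM2, a target and inhibitor of p53, was at 132 and 160.5 CPM against 44.8 to 94.1 CPM, and RRM2B, a p53-induced reductase subunit, at 33.1 and 40.1 CPM against 17.8 to 24.1 CPM. MDM2 and RRM2B were picked from 16 checkpoint and p53 target genes after their values were seen. Apart from BTG1, the others are not given by donor here, so these genes do not stand for the list. Of all 16, 3 were called for donor at an adjusted p under 0.05 by the same F-test with the labels (7.35% of all genes). In R12016, 1 of the 16 was lowest in both conditions (15.5% of all genes). Other genes of CDK inhibitors went both ways in R12016. CDKN2B was at 55.3 and 46.7 CPM against 11.9 to 36.9 CPM in the other 6 libraries. By contrast, CDKN2C was at 4.47 and 7.40 CPM against 9.18 to 14.5 CPM, and CDKN1B, at 17.5 and 15.3 CPM, lay within 9.51 to 21.4 CPM. A link between any of these genes and the low level of the list was not tested. In the same libraries the markers of microglia and macrophages summed to 5417 and 4586 CPM against 4118 to 5309 CPM, those of oligodendrocytes (8 of 10 found) to 497 and 420.3 CPM against 303 to 369 CPM, and those of astrocytes (6 of 6) to 203 and 189.9 CPM against 88.7 to 205 CPM. Endothelial markers (7 of 7 found) summed to 334 and 313 CPM against 189 to 265 CPM with CLDN5 at most at 0.162 CPM, and lymphocyte markers (11 of 12), mostly CD4, to 632 and 584 CPM against 309 to 648 CPM. Fibroblast and mural markers were at 102 and 223 CPM against 160 to 1260 CPM. The sums of oligodendrocyte and endothelial markers in R12016 thus lay above the other 6 libraries. For the other 4 marker lists, the 2 libraries of R12016 did not both lie apart from all others. Taken within each condition, however, R12016 had the lowest fibroblast and mural sum of the 4 donors in both. That sum was 102 against 160 to 1260 CPM with uLPS, and 223 against 245 to 563 CPM with MRS2578. The totals of R12016, 16883385 and 15468163 counts, lay within the range of the others, and the part of cell makeup in the difference was not tested.

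**Figure D5:**
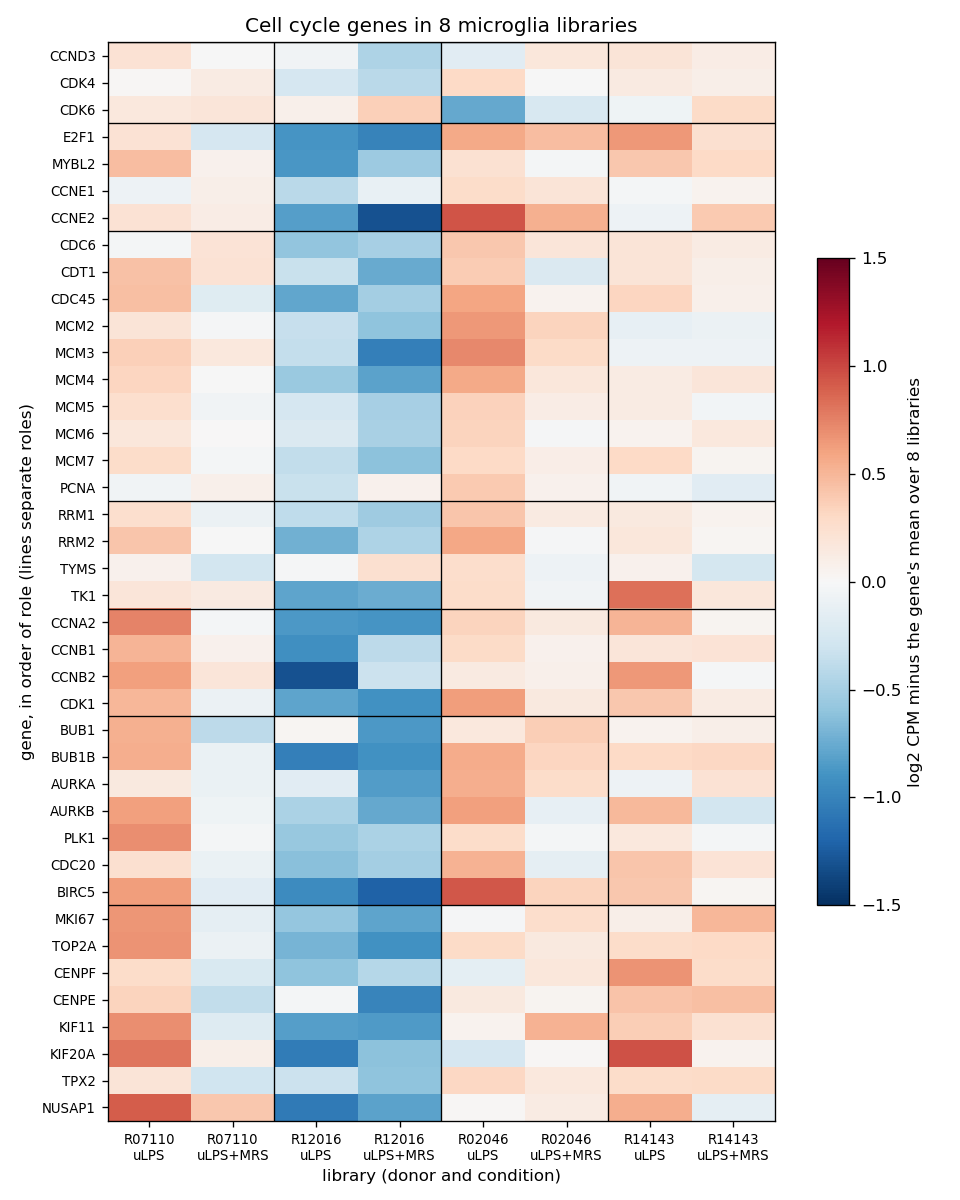
log2 CPM of each gene minus its mean over 8 libraries, with genes in order of role and libraries by donor and labelled condition, on a colour scale limited to 1.5 either way. The 2 columns of R12016 are blue in nearly every row, matching the 36 of 40 genes lowest there in both conditions.

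In the promoters of these genes, short motifs were unequally shared between phases. In windows from 250 bases before to 50 after the gene start (RefSeq annotation of Mmul_10, 40 of 40 members, 21050 promoters in all), both strands were searched for the CCAAT box (CCAAT, bound by NF-Y), the cell cycle homology region or CHR (TTTGAA or TTCGAA, the element of MuvB) and 4 forms of the E2F site (TTTGGCGC, TTTCCCGC, TTTCGCGC and TTTGCCGC). Matches that overlap on opposite strands were each counted, and a palindrome once. Of the 19 genes of the S-to-M, mitotic and spindle roles, 57.9% held a CHR, against 5.56% of the 18 genes of G1/S, replication and nucleotide synthesis and 15.6% of all promoters. The E2F site had the opposite distribution, with 38.9% of the 18 earlier genes, 5.26% of the 19 later genes and 3.51% of all promoters. The CCAAT box was in 68.4% of the later and 33.3% of the earlier genes, against 34.7% of all promoters. None of the 3 G1 genes held any of the motifs.

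The promoters of 5 genes are printed, of members with a p under 0.05 for MRS2578 with the labels or a call for donor, because they show both motif classes. Each is 280 bases, 5′ to 3′ on the gene's strand, from 250 bases before to 30 after the gene start, and capitals mark the motif matches. AURKB (chr16:8014023-8014302, minus strand) and TOP2A (chr16:51571916-51572195, minus) hold CHR matches, MCM3 (chr4:117252136-117252415, plus) and MCM5 (chr10:16147179-16147458, minus) hold E2F matches, and CDK1 (chr9:77210882-77211161, minus) holds 1 of each.
AURKB: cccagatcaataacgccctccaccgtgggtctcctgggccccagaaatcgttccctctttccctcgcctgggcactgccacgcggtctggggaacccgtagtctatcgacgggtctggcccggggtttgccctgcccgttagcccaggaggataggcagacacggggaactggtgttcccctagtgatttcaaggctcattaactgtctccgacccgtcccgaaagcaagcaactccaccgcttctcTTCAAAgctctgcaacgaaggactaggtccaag
TOP2A: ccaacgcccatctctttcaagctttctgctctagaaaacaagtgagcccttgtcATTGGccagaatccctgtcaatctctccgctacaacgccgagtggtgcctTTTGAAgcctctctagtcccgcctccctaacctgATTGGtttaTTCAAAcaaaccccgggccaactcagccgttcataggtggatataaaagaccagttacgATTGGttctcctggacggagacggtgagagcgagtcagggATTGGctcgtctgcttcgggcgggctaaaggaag
CDK1: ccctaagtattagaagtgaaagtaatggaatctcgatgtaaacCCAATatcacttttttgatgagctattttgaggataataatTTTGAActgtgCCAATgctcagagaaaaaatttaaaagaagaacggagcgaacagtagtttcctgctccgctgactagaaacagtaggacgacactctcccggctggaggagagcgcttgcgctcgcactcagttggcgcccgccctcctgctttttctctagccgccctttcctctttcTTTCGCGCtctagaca
MCM3: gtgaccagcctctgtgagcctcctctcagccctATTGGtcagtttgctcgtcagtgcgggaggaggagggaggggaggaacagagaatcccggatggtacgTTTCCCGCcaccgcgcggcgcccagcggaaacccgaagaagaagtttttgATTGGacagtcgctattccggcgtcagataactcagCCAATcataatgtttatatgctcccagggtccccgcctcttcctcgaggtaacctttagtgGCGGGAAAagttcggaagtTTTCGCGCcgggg
MCM5: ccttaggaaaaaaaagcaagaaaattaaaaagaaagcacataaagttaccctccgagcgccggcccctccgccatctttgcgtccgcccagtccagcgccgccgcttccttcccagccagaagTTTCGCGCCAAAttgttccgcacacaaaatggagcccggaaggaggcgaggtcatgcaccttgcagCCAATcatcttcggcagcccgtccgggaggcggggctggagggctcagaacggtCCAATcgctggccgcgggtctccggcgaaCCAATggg
AURKB has 1 CHR and neither a CCAAT box nor an E2F match. TOP2A has 2 CHR matches and 4 CCAAT boxes, and MCM3 and MCM5 have 3 CCAAT boxes each beside 3 and 2 E2F matches. A match is a description of these letters and not a site shown to be bound.

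Other genes of the same pathways were read beside the list. Of 41 genes of mitosis and the kinetochore, all tested, 35 had a fitted change below 0 with the labels and 34 with the exchange (52.1% and 49.8% of all genes), with medians of -0.22 and -0.21, and none was called. Of 31 origin and replication factors tested (35 listed), 28 were below 0 with the labels but 15 with the exchange, with medians of -0.14 and 0.00. Within the list, the medians of the spindle role were -0.24 and -0.30 and those of the replication role -0.24 and -0.04.

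The inhibitors and upstream regulators showed no shared direction. Among 10 tested genes of the D-type cyclins, kinases and inhibitors, 6 were below 0 with the labels, and of 19 RB, E2F, DREAM and MuvB genes 11 were, with none called. CCND1, another D-type cyclin gene, was at 188, 155, 356 and 145 CPM with uLPS and at 259, 256, 239.6 and 313 CPM with MRS2578. It was higher with MRS2578 in 3 donors and lower in R02046 by the labels, and the fitted difference was 0.44 on the log2 scale (SE 0.26, edgeR adjusted p 0.878). With the R02046 libraries exchanged it rose by 0.72 (SE 0.12, adjusted p 0.0496, same edgeR test), the only gene of the pathway lists to pass under either labelling, and without R02046 its adjusted p was 0.160.

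FOXM1, the factor of the mitotic genes, was at 19.04, 6.77, 14.5 and 16.2 CPM with uLPS and at 11.4, 8.35, 13.5 and 12.8 CPM with MRS2578, a log2 fold change of -0.24 (SE 0.19) with the labels and -0.21 (SE 0.19) with the exchange. MYC was at 131, 106, 132 and 102.5 CPM with uLPS and at 137, 108, 104 and 143 CPM with MRS2578, a change of 0.06 (SE 0.14) with the labels, 0.23 (SE 0.10) with the exchange and 0.19 (SE 0.12) without R02046. FOXM1 was lowest in R12016, as the list was, whereas MYC was not. CDKN1A had a log2 fold change of 0.10 (SE 0.12) for MRS2578 with the labels and -0.06 (SE 0.11) with the exchange.

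The genes with the highest counts of the remaining lists also missed the threshold with the labels. The log2 fold change was -0.09 (SE 0.12) for RB1, the retinoblastoma gene, -0.04 (SE 0.10) for RFC1, a clamp loader subunit, -0.33 (SE 0.19) for CCNF, a cyclin of G2, and 0.00 (SE 0.13) for CSF1R, and with the exchange -0.21 (SE 0.09), -0.13 (SE 0.09), -0.43 (SE 0.14) and -0.12 (SE 0.10) in the same order. BTG1, an antiproliferative gene, was at 232, 483, 113 and 325 CPM with uLPS and at 178, 213.0, 119 and 139 CPM with MRS2578, lower in each donor but R02046. Its change was -0.68 (SE 0.23, unadjusted p 0.0207) with the labels and -0.72 (SE 0.19) with the exchange, with adjusted p-values of 0.878 and 0.134 by edgeR. Of the 16 checkpoint and p53 target genes 6, and of the 8 tested growth signal genes 3, were below 0 with the labels.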

How the data were processed

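The authors trimmed, aligned to Mmul_10 and counted the reads, and deposited whole-number counts per Ensembl gene for 8 libraries, 4 per condition. The methods of the study name fastp (0.20), STAR (2.5.4), SAMtools (1.10) and HTSeq (0.11.0), while the submitters' processing notes name Trimmomatic (0.30), TopHat2 (2.0.14), SAMtools (1.3) and HTSeq (0.6.1p1). The strand setting and annotation release are not given in the sources used here, so genes that overlap others have uncertain counts.

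The 42 genes, their roles and all lists were chosen with earlier results of these data known. Counts were analysed in R (4.3.3) with edgeR (4.0.16): filterByExpr on condition (minimum count 10), TMM scaling, and the quasi-likelihood F-test, blocked by donor, with Benjamini-Hochberg adjustment over all genes tested, at 0.05. The donor coefficients were tested in the same fit. Standard errors (SE) were derived from the test statistic. Within donors, log2 CPM values (prior count 2) were subtracted. The libraries of a donor come from 1 animal, and their deviations from the condition means correlated at 0.602, 0.552, 0.458 and 0.562. No 2 libraries were duplicates (chi-square per degree of freedom at least 19.56). Conditions and donors came from the labels, which give no sequencing batch. The 2 columns of R02046 in the study's CPM listing matched the library of the opposite condition, so the exchange was recomputed beside the labels. The CPM listing served for this match alone.

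Values were given in every library for the highest and lowest member by mean CPM in each role, members with an unadjusted p under 0.05 under any of the 3 treatments of R02046, and MKI67, TOP2A, PCNA and CDK1. From the other pathway lists, called genes, CDKN1A, CCND1, MYC, FOXM1 and the gene with the highest mean CPM were named. MDM2, RRM2B, CDKN2B, CDKN2C and CDKN1B were named outside this rule, for their levels in R12016. Alternatives were DESeq2 (1.42.0) tests and size factors, scaling by total counts, the likelihood ratio test of edgeR, its earlier way of estimating quasi-dispersions (added after the data were seen), other filters, no block, and each donor left out. The procedure was run on simulated data with planted changes larger than any fitted here for the members. It therefore does not show whether changes of the size seen in the members could be called. Gene positions, exon lengths and promoters are from the NCBI RefSeq annotation of Mmul_10, read with Python (3.11.15). Protein sequences were not used here.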

Additional observations from a re-analysis of the deposited data

Results flagged for a closer look

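In 98 groups of 4 libraries tested (each of the 40 genes and each summed role or set, in each condition), 8 held a library further from the others than Dixon's 95% critical value of 0.829 allows, where chance flags about 1 in 20. In 7 of the 8 it was the library of R12016 that lay low. With uLPS these were MCM7 (53.9 CPM against 84.1 to 85.6 in the others), AURKB (4.40 CPM against 8.59 to 9.44) and the sum of the G1/S regulators (38.2 CPM against 79.8 to 86.3). With MRS2578 they were CDC6 (7.02 CPM against 10.8 to 11.4), RRM2 (43.1 CPM against 58.6 to 60.3), PLK1 (11.4 CPM against 15.5 to 15.6) and KIF20A (4.05 CPM against 6.29 to 6.59). The eighth was PCNA in R14143 with MRS2578, at 73.6 CPM against 86.3 to 87.5.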

How the results depend on the processing

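No member passed an adjusted p of 0.05 for MRS2578 under any alternative run, and of 520 fold changes of members under alternatives 500 kept their direction and their side of the threshold, with a lowest adjusted p of 0.202. The count of members at an unadjusted p under 0.05 (8) was 3 with scaling by total counts, 3 with the R02046 libraries exchanged and 1 with no replicate block, and between 2 (without R07110) and 7 when a donor was left out. The share of all genes at that p was 5.14% in the main fit, 16.4% with the exchange and 13.6% without R02046. For the other alternatives it is not given, so a shift of the list and one of all genes cannot be told apart there. Dropping the block changed no other call. The count of all genes called for MRS2578 (0) was 1 with DESeq2, 5 with edgeR's likelihood ratio test and 75 with the exchange, and 0 with each donor left out. For the donor effect, members called (9) were 22 with DESeq2, 25 with the likelihood ratio test and 16 with the exchange, and 0 (without R12016) to 7 when a donor was left out. All genes called for donor (892) were 2468, 2773 and 2288 in the same order, and 333 (without R12016) to 909 with a donor left out (421 without R07110, 408 without R14143). The median difference within R12016 was 0.0245 with total counts in place of -0.11. Signs turned with the exchange for CDK4 (0.0573), CCNE2 (0.12), MCM6 (0.00393), RRM2 (0.0627), CCNB1 (0.0543) and CDC20 (0.0175), and with total counts for CCNB1 (0.00948). With a donor left out, the log2 fold change ran from -0.238 to 0.0131 for CCND3, -0.32 to 0.0118 for CCNE2, -0.0733 to 0.0851 for CDC6, -0.098 to 0.134 for PCNA, -0.217 to 0.0959 for CCNB1, -0.408 to 0.102 for CCNB2, -0.251 to 0.152 for MKI67, -0.255 to 0.0258 for CENPF and -0.375 to 0.104 for KIF11. The cause of these changes was not tested. A single library per donor and condition, 4 animals, counts near 29 for CCNB2 and the open label of R02046 limit what can be read from these values.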
